A study of Mus musculus with 6 samples.

Results

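Integrins and the proteins of focal adhesions are described here across 6 RNA-seq libraries of mouse primary osteoblasts, the cells that make bone. The group holds 36 genes chosen by symbol: 12 alpha and 5 beta integrin subunits, 10 genes of actin linkers and integrin activators, and 9 genes of kinases and adaptors. All 36 had a row among the 51912 Ensembl gene IDs of the deposited table, and all 36 passed the filter on low counts that 19017 genes passed. The cells came from the calvaria (skull cap) of C57BL/6J pups aged 1 d. In every pup both Mark3 alleles were flanked by loxP sites (Mark3 flox/flox), so all 6 libraries share that background. In 3 libraries, called WT, the cells had received an adenovirus carrying GFP for 24 h. In the other 3, called Mark3-KO and labelled Mark3-/-, they had received an adenovirus carrying CRE, the recombinase that cuts out loxP-flanked DNA, for 24 h. Virus cargo and genotype therefore changed together and cannot be told apart, and promoter or titre of the viruses are not given in the sources used here. Whether the 3 libraries of each group are separate cultures is not given either, so p-values speak only of the spread among libraries, which may be technical.

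The targeted gene, Mark3, encodes a kinase that acts on proteins bound to microtubules, and it measured 113, 118 and 118 CPM (WT) and 47.6, 52.4 and 44.1 CPM (Mark3-KO), with no overlap. Its log2 fold change was -1.27 ± 0.10 (SE, at an edgeR adjusted p of 0.0153) by edgeR's quasi-likelihood method, with p-values adjusted after Benjamini and Hochberg over all genes tested. With a library left out it stayed between -1.35 and -1.22, but the call was lost in 3 of these fits, with edgeR adjusted p values of 0.128 (WT replicate 2 left out), 0.0798 (Mark3-KO replicate 2) and 0.0681 (Mark3-KO replicate 3). CPM denotes counts scaled to library size with TMM factors, every fold change is the log2 of Mark3-KO relative to WT, and errors of levels are SD over 3 libraries. Libraries held between 56925883 and 71445243 counts. They stood apart by the GC content of transcripts: in the tenth of genes with the highest GC content (at least 57.3%), the median ratio of a library to the average over the 6, in log2, ran from 0.07 to 1.00 in WT and from -0.80 to -0.20 in Mark3-KO. The share of mitochondrial counts followed the same order of libraries, with 1.05, 1.42 and 1.66% (WT) and 2.07, 2.38 and 3.23% (Mark3-KO), with no overlap, and its part in the results on the members was not tested. The log2 fold change of each member is given as fitted and after a correction for GC content. That correction can also remove part of a difference between the groups, since the GC axis runs along the group axis. In bulk RNA, fewer cells of a type and less RNA per cell cannot be told apart.

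Integrins are receptors made of an alpha and a beta chain that hold cells to the matrix. The alpha chain largely sets the ligand: alpha5 with beta1 binds fibronectin, alphav pairs bind RGD-containing proteins such as vitronectin and osteopontin, and alpha1, alpha2, alpha10 and alpha11 with beta1 bind collagens. Inside the cell, talin and kindlin bind the beta tail and switch the receptor to its active state, vinculin, alpha-actinin, filamin and tensin tie it to actin, and focal adhesion kinase, paxillin, p130Cas and the complex of ILK, PINCH and parvin pass signals on. In osteoblasts these contacts carry adhesion to collagen and fibronectin and the response to load.

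The beta subunits with the highest levels, Itgb1, Itgb5 and Itgb3, are shown by the last 150 bases of their coding sequences, stop codon included, because this end encodes the cytoplasmic tail that talin and kindlin bind, and because the transcripts differ in base composition. The sequences are those of the principal GENCODE M21 transcripts on GRCm38, read 5′ to 3′ on the coding strand. Capitals mark the codons of each asparagine-proline-x-tyrosine (NPxY) motif, a docking motif of talin and, in the beta1 tail, of kindlin too.
Itgb1: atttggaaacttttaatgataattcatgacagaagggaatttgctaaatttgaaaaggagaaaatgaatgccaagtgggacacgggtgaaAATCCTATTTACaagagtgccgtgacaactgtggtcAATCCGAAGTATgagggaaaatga
Itgb5: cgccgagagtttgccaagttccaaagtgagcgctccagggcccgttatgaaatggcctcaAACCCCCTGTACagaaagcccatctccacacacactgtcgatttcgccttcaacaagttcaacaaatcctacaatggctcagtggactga
Itgb3: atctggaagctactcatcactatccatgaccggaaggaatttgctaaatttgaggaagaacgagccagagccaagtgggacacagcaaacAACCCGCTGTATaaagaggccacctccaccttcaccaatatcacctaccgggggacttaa
The stretch of Itgb1 held 2 such motifs, and those of Itgb5 and Itgb3 held 1 each. Their GC content was 37.3% in Itgb1, 48.7% in Itgb3 and 51.3% in Itgb5. Over all annotated transcripts it was 44.7% for Itgb1, 51.7% for Itgb3 and 56.0% for Itgb5. The log2 fold changes of these genes, 0.49, -0.09 and -0.90, stood in the reverse of that order.

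The promoters of the Itgb1 and Itgb5 genes did not differ in this way. The 250 bases before each start site, from RefSeq on GRCm38.p6, are given 5′ to 3′ on the strand of the gene (plus for both), with capitals for GGGCGG on either strand, the GC box.
Itgb1, chr8:128685404-128685653: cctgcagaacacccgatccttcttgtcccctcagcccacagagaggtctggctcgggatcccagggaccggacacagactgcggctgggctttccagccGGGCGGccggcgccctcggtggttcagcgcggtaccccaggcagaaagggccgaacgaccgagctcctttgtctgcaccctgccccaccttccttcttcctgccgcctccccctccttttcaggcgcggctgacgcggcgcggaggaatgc
Itgb5, chr16:33829415-33829664: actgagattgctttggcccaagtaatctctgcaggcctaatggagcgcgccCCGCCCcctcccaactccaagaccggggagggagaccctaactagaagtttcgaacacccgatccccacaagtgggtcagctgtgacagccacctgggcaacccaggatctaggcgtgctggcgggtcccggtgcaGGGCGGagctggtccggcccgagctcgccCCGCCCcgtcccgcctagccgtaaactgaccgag
The promoter stretch held 68.0% GC for Itgb1 and 65.2% for Itgb5, with 1 and 3 matches to the motif. Of the 36 members, 27 had an entry in the promoter table. Of all 32851 promoter windows of this length, 32.7% held GGGCGG, against 18 of 32 windows of members (56.2%), where a gene can have more than a single window. The median GC content was 64.8% in the windows of members and 52.4% in all windows, and the motif shares were not adjusted for it. The CArG box, the motif bound by serum response factor, was found in 1.5% of all windows and, among members, in those of Fermt2 and Vcl. These matches are descriptions of letters, not sites.

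None of the 36 members passed edgeR's test at an adjusted p below 0.05, which 0.216% of all genes tested did (0.0473% higher and 0.168% lower in Mark3-KO). At an unadjusted p below 0.05, 9 members were higher and 19 lower, where 20.8% of all genes were higher and 24.8% lower. The smallest adjusted p among members was 0.0506, so the count is set by values just past the threshold: at an adjusted p below 0.1 the counts were again 9 higher and 19 lower, against 19.7% and 24.0% of all genes. With the DESeq2 Wald test 4 members were higher and 19 lower at adjusted p below 0.05, against 14.6% and 21.7% of all genes. Without WT replicate 3, edgeR's test passed 4 members higher and 17 lower (background 12.9% and 20.0%), and without Mark3-KO replicate 1 it passed 3 higher and 18 lower (12.1% and 20.0%).

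The median log2 fold change of the members was -0.45, beside 0.02 over all genes tested, and single members ran from -1.94 (Pxn) to 0.60 (Itga4). The groups did not overlap in 29 members, beside 53.3% of all genes. In 20 members all Mark3-KO libraries lay below all WT libraries, a share of 55.6% beside 27.5% of all genes. In 9 members they all lay above, a share close to that of all genes (25.8%). With the correction for GC content the median was -0.12, beside 0.04 over all genes, and 0 members passed edgeR's test at an adjusted p below 0.05, beside 0.442% of all genes (0.121% higher and 0.321% lower). At an unadjusted p below 0.05, 3 corrected members were higher and 11 lower, beside 12.6% and 13.9% of all genes. At a corrected adjusted p below 0.1 these were 0 higher and 5 lower, namely Itga11, Itga3, Tns2, Zyx and Bcar1, beside 2.03% and 4.0% of all genes. After the correction 14 members lay apart on the lower side and 2 on the higher, where 17.0% and 17.2% of all genes did.

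**Figure D1:**
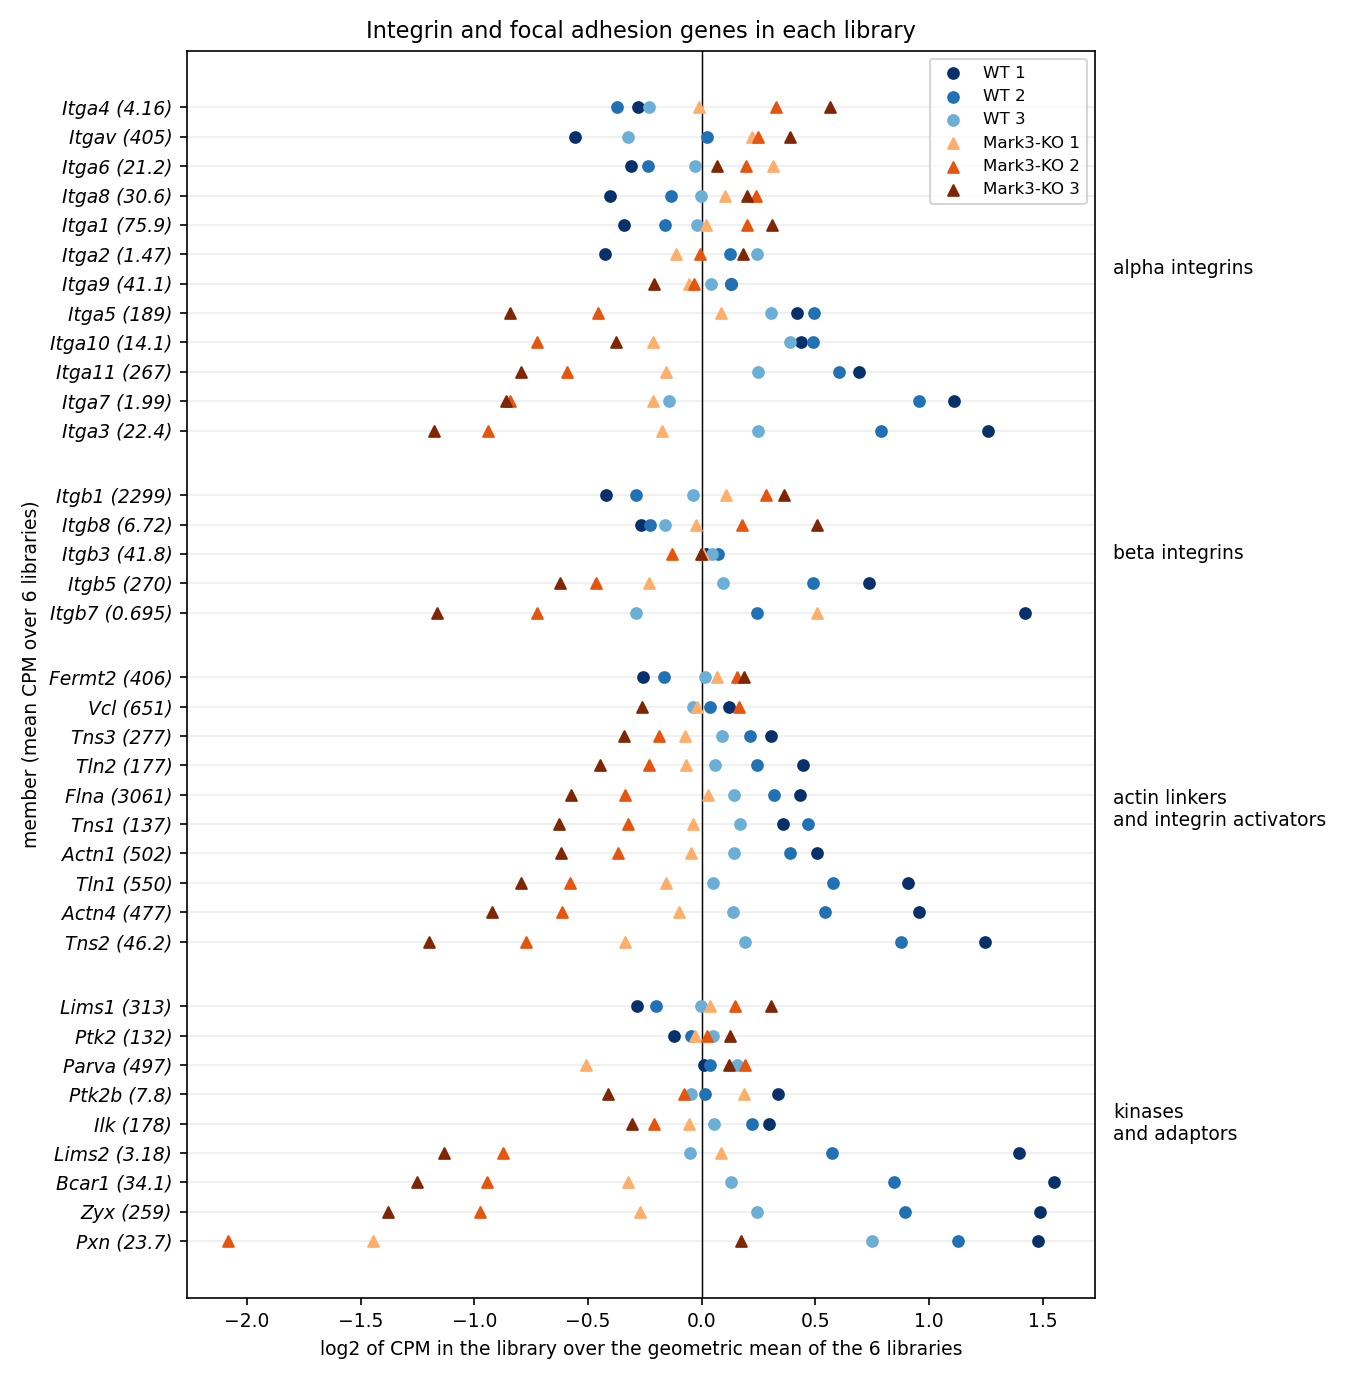
Level of each member in each library, as the log2 of its CPM over its geometric mean across the 6 libraries, with WT libraries as circles and Mark3-KO libraries as triangles. In 20 members every triangle lies left of every circle and in 9 every triangle lies right, and the widest spreads lie at Pxn, Bcar1 and Zyx.

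The alpha subunits divided by direction. Among the collagen-binding chains, Itga11, the alpha11 chain (chromosome 9, 62677826 to 62783982, GRCm38), measured 400.4, 377 and 295 CPM (WT) and 222, 165 and 143 CPM (Mark3-KO). The groups did not overlap, and the log2 fold change was -1.02 ± 0.20 (SE, at an edgeR adjusted p of 0.0506), and -0.32 after the GC correction. Itga10, the alpha10 chain (chromosome 3, 96645584 to 96664519), measured 18.1, 18.8 and 17.6 CPM (WT) and 11.6, 8.11 and 10.3 CPM (Mark3-KO). Without the correction its groups lay 0.60 apart on the log2 scale, wider than the range within either group (0.10 in WT and 0.51 in Mark3-KO). The log2 fold change of Itga10 was -0.86 ± 0.16 (SE, at an edgeR adjusted p of 0.0506) and -0.42 after the correction. Corrected levels of Itga10 were 14.0, 15.9 and 16.9 CPM (WT) and 11.9, 9.67 and 13.4 CPM (Mark3-KO). The groups then still lay apart, but by less than the range within either group. Its exons share 1739 bases with Gm42957 on the same strand, which measured 0.414 CPM (WT) and 0.882 CPM (Mark3-KO). Itga1, the alpha1 chain, went the other way, with 66.8 ± 7.41 CPM (WT) and 85.0 ± 8.48 CPM (Mark3-KO) (log2 fold change 0.35, edgeR adjusted p 0.0772), but stood at -0.01 after the correction. The alpha2 chain gene Itga2 was low, at 1.46 ± 0.334 CPM (WT) and 1.48 ± 0.153 CPM (Mark3-KO), and its groups overlapped. Its log2 fold change was 0.02, and -0.30 after the correction, and it turned negative without WT replicate 1 (-0.16) and without Mark3-KO replicate 3 (-0.07).

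Of the chains that bind fibronectin and RGD sequences, Itga5 (chromosome 15, 103344286 to 103366763) measured 239.9, 253 and 222 CPM (WT) and 191, 131 and 100.1 CPM (Mark3-KO). Mark3-KO replicate 3 was the lowest, and the groups did not overlap. The log2 fold change of Itga5 was -0.76 ± 0.23 (SE, at an edgeR adjusted p of 0.0550), but 0.05 with the GC correction. Itgav (chromosome 2, 83724397 to 83806916), whose values by library were chosen after they were seen, measured 268, 401 and 316 CPM (WT) and 461, 469 and 516 CPM (Mark3-KO). WT replicate 2 was the highest of its group, and all Mark3-KO libraries lay above it. The log2 fold change of Itgav was 0.55 ± 0.16 (SE, at an edgeR adjusted p of 0.0524), and it remained positive, at 0.39, with the correction. Itga8, which pairs with beta1 and binds nephronectin, measured 26.9 ± 3.69 CPM (WT) and 34.4 ± 1.63 CPM (Mark3-KO) (0.35, and 0.06 after the correction). Itga4, a chain that binds VCAM1 and fibronectin, was low, at 3.30 ± 0.162 CPM (WT) and 5.01 ± 0.985 CPM (Mark3-KO) (0.60, and 0.24 after the correction), and Itga9, a receptor chain for tenascin, measured 44.0 ± 1.54 CPM (WT) and 38.3 ± 2.52 CPM (Mark3-KO) (-0.20, edgeR adjusted p 0.173, and -0.01 after the correction).

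The laminin-binding chains Itga3, Itga6 and Itga7 differed in sign. Itga3 (chromosome 11, 95044474 to 95076801) measured 45.0, 32.5 and 22.3 CPM (WT) and 16.7, 9.80 and 8.31 CPM (Mark3-KO). The groups did not overlap, but the gap between them (0.42 on the log2 scale) was smaller than the range within either. Itga3 had a log2 fold change of -1.52 ± 0.35 (SE, at an edgeR adjusted p of 0.0506) and -0.62 with the correction. Itga6 measured 18.4 ± 1.90 CPM (WT) and 24.0 ± 2.04 CPM (Mark3-KO) (0.38, edgeR adjusted p 0.0705, and 0.25 corrected). Itga7, the alpha7 chain best known from muscle, measured 3.70, 3.32 and 1.55 CPM (WT) and 1.48, 0.957 and 0.944 CPM (Mark3-KO), with a log2 fold change of -1.34 ± 0.38 (SE, at an edgeR adjusted p of 0.0517) and -0.88 corrected. Corrected levels of Itga7 were 2.87, 2.81 and 1.49 CPM (WT) and 1.52, 1.14 and 1.22 CPM (Mark3-KO), with overlap between the groups. The 8 skeletal muscle markers summed to 15.5 to 24.3 CPM (WT) and 7.38 to 12 CPM (Mark3-KO). A negative log2 fold change was found in 7 of 7 tested, beside 9296 of all 19017 genes tested. In 4 of the 7 the unadjusted p of edgeR's test was below 0.05. Ckm, muscle creatine kinase, stayed at no more than 0.163 CPM in any library. The part of the muscle markers in the Itga7 result was not tested.

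Among the beta subunits, Itgb1, the shared partner of most alpha chains (chromosome 8, 128685654 to 128733200), measured 1686, 1848 and 2196 CPM (WT) and 2429, 2740 and 2896 CPM (Mark3-KO). Every Mark3-KO library lay above every WT library, and the Mark3-KO mean stood at 141% of WT. The log2 fold change of Itgb1 was 0.49 ± 0.13 (SE, at an edgeR adjusted p of 0.0508), and 0.20 with the GC correction. Itgb5, a partner of alphav that binds vitronectin (chromosome 16, 33829665 to 33949338), measured 424, 357 and 272 CPM (WT) and 216, 184 and 165 CPM (Mark3-KO). Here all Mark3-KO libraries lay below, at 53.8% of WT in the mean, with a log2 fold change of -0.90 ± 0.19 (SE, at an edgeR adjusted p of 0.0506). With the correction it was -0.13. Itgb3, the other RGD-binding partner of alphav, differed little, with 43.0 ± 0.796 CPM (WT) and 40.5 ± 2.13 CPM (Mark3-KO) (log2 fold change -0.09, edgeR adjusted p 0.504), a sign that turned to 0.11 with the correction. Itgb8, an alphav partner that binds latent TGF-beta, measured 5.49, 5.63 and 5.89 CPM (WT) and 6.49, 7.45 and 9.35 CPM (Mark3-KO), with a log2 fold change of 0.45 ± 0.17 (SE, at an edgeR adjusted p of 0.0887) and 0.08 corrected. Itgb7, a beta chain of lymphocytes, had 1.56, 0.690 and 0.477 CPM (WT) and 0.828, 0.352 and 0.260 CPM (Mark3-KO), and the groups overlapped. Itgb7 had a log2 fold change of -0.90 ± 0.59 (SE, at an edgeR adjusted p of 0.270), but -0.26 without WT replicate 1 and 0.10 with the correction.

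Level per length, as RPKM (CPM per kilobase of annotated exons), places the subunits on a common scale that depends on the length used. The merged exons of all annotated transcripts came to 10744 bases for Itgav and 5131 for Itga11. The principal transcript alone is much shorter for Itgav but not for Itga11, so the order of genes can depend on this choice. Orders by other lengths were not computed. In WT the levels per length ran in the order Itgb1 (468 ± 63.9 RPKM), Itgb5 (98.7 ± 21.5 RPKM), Itga11 (69.7 ± 10.8 RPKM), Itga5 (48.2 ± 3.17 RPKM) and Itgav (30.6 ± 6.28 RPKM). In Mark3-KO Itgav, at 44.9 ± 2.78 RPKM, had a higher mean than Itga11 at 34.4 ± 8.0 RPKM and Itga5 at 28.5 ± 9.33 RPKM, and the latter pair did not differ beyond their spread. In WT the values of mean ± SD of Itgb5 and Itga11 touched, and those of the others did not. Of the summed RPKM of the 12 alpha subunits, Itga11 took 43.9, 39.2 and 36.9% (WT) and 29.4, 26 and 23.8% (Mark3-KO). Itga5 took 27.3, 27.3 and 28.9% (WT) and 26.3, 21.4 and 17.3% (Mark3-KO). Itgav took 14.0, 19.9 and 18.9% (WT) and 29.1, 35.3 and 41.0% (Mark3-KO), so that it held the largest share in Mark3-KO replicates 2 and 3 and was nearly level with Itga11 in Mark3-KO replicate 1. Of the summed RPKM of the 5 beta subunits, Itgb1 took 76.4, 80.7 and 86.4% (WT) and 89.6, 91.9 and 92.9% (Mark3-KO), and Itgb5 22.1, 17.9 and 12.3% (WT) and 9.17, 7.10 and 6.09% (Mark3-KO). With CPM corrected for GC content, the share of Itga11 came to 39.3, 35.9 and 36.3% (WT) and 30.4, 29.8 and 29.5% (Mark3-KO), and that of Itgav to 21.1, 25.4 and 19.7% (WT) and 27.2, 28.9 and 31.9% (Mark3-KO). The groups still lay apart in both, but Itga11 then held more than Itgav in Mark3-KO replicates 1 and 2 and in the Mark3-KO mean (29.9 against 29.3%). The corrected share of Itga5 overlapped between the groups, and that of Itgb1 was 85.5, 85.8 and 87.3% (WT) and 88.6, 88.6 and 88.5% (Mark3-KO). The GC content of the transcripts was 46.9% for Itgav, 57.0% for Itga5 and 55.7% for Itga11.

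**Figure D2:**
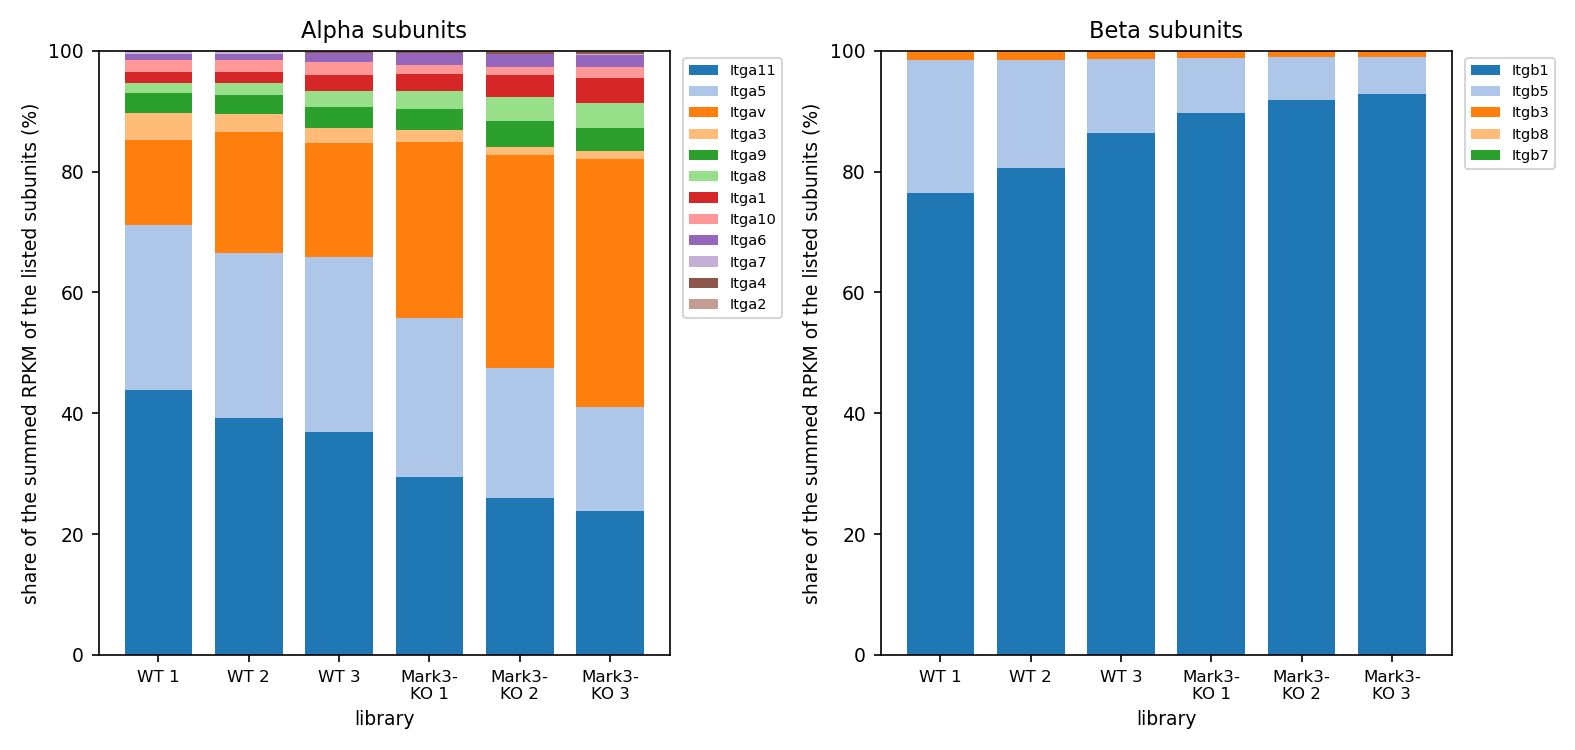
Share of each subunit in the summed RPKM, without GC correction, of the 12 alpha (left) and 5 beta (right) subunits, in % per library. The share of Itga11 was 43.9% in WT replicate 1 and 23.8% in Mark3-KO replicate 3, while that of Itgb1 was 76.4 and 92.9%.

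Of the 10 genes of actin linkers and integrin activators, 9 had a negative log2 fold change, beside 9296 of all 19017 genes tested. In Mark3-KO 8 of the linkers lay wholly lower and 1 wholly higher (beside 27.5% and 25.8% of all genes), and the median was -0.61 (-0.22 with the GC correction). With the correction 6 lay wholly lower and 0 wholly higher, beside 17.0% and 17.2% of all genes. Flna, filamin A, which crosslinks actin and binds beta tails (chromosome X, 74223461 to 74249820), had the highest level in CPM and measured 4006, 3702 and 3279 CPM (WT) and 3030, 2353 and 1993 CPM (Mark3-KO). The groups did not overlap, with a log2 fold change of -0.57 ± 0.17 (SE, at an edgeR adjusted p of 0.0550) and -0.14 corrected. Tln1, talin 1, which activates integrins and pulls on actin (chromosome 4, 43531519 to 43562691), measured 946, 752 and 523 CPM (WT) and 452, 337 and 290.5 CPM (Mark3-KO). Its log2 fold change was -1.04 ± 0.25 (SE, at an edgeR adjusted p of 0.0506) and -0.29 corrected, and the range within WT (0.86) exceeded the gap between the groups (0.21). Its paralog Tln2 measured 208 ± 28.1 CPM (WT) and 147 ± 19.1 CPM (Mark3-KO) (-0.50, edgeR adjusted p 0.0526, and -0.15 corrected). Of the summed RPKM of both talins, Tln1 held 88.2, 87.3 and 84.4% (WT) and 83.6, 81.0 and 81.0% (Mark3-KO). The corrected share of Tln1 was 85.5, 85.6 and 84.2% (WT) and 84.4, 83.3 and 83.8% (Mark3-KO), with overlap between the groups.

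The alpha-actinins crosslink actin and bind beta tails and vinculin. Actn1 (chromosome 12, 80167547 to 80260371) measured 686, 632 and 534 CPM (WT) and 467, 375 and 315 CPM (Mark3-KO), for a log2 fold change of -0.68 ± 0.17 (SE, at an edgeR adjusted p of 0.0506) and -0.31 corrected. Actn4 (chromosome 7, 28893248 to 28962340) measured 838, 631 and 477 CPM (WT) and 404, 283 and 229 CPM (Mark3-KO), for a log2 fold change of -1.09 ± 0.27 (SE, at an edgeR adjusted p of 0.0506) and -0.34 corrected. Both were lower in every Mark3-KO library, and Actn1 held 47.6, 52.6 and 55.4% (WT) and 56.2, 59.5 and 60.4% (Mark3-KO) of their summed RPKM. With the correction the Actn1 share was 53.4, 56.1 and 55.7% (WT) and 54.8, 55.8 and 55.9% (Mark3-KO), and the groups overlapped. The tensins tie beta tails to actin in older, fibrillar adhesions. Tns2 (chromosome 15, 102100413 to 102116401) measured 91.9, 71.1 and 44.2 CPM (WT) and 30.7, 22.7 and 16.9 CPM (Mark3-KO), the most negative log2 fold change of the linkers at -1.56 ± 0.32 (SE, at an edgeR adjusted p of 0.0506), and -0.51 corrected. Tns3 measured 315 ± 23.6 CPM (WT) and 239 ± 22.0 CPM (Mark3-KO) (-0.40, and -0.24 corrected), and Tns1 168 ± 17.2 CPM (WT) and 107 ± 21.7 CPM (Mark3-KO) (-0.65), which turned to 0.17 with the correction.

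Fermt2, kindlin 2, which activates integrins together with talin, was the linker with the opposite sign. It measured 368 ± 35.9 CPM (WT) and 444 ± 18.3 CPM (Mark3-KO), with all Mark3-KO libraries above WT (log2 fold change 0.27, edgeR adjusted p 0.0884, and 0.09 corrected). Vcl, vinculin, which reinforces the talin link to actin and whose values by library were chosen after they were seen, measured 704, 665 and 631 CPM (WT) and 639.8, 726 and 540.5 CPM (Mark3-KO). The groups overlapped, and the log2 fold change was -0.07 (edgeR adjusted p 0.689), with -0.19 corrected. Vcl shares 2090 exon bases with Ap3m1 on the opposite strand, which measured 218 CPM (WT) and 369 CPM (Mark3-KO). The library kit does not mark strand, so reads from the shared bases cannot be told apart.

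**Figure D3:**
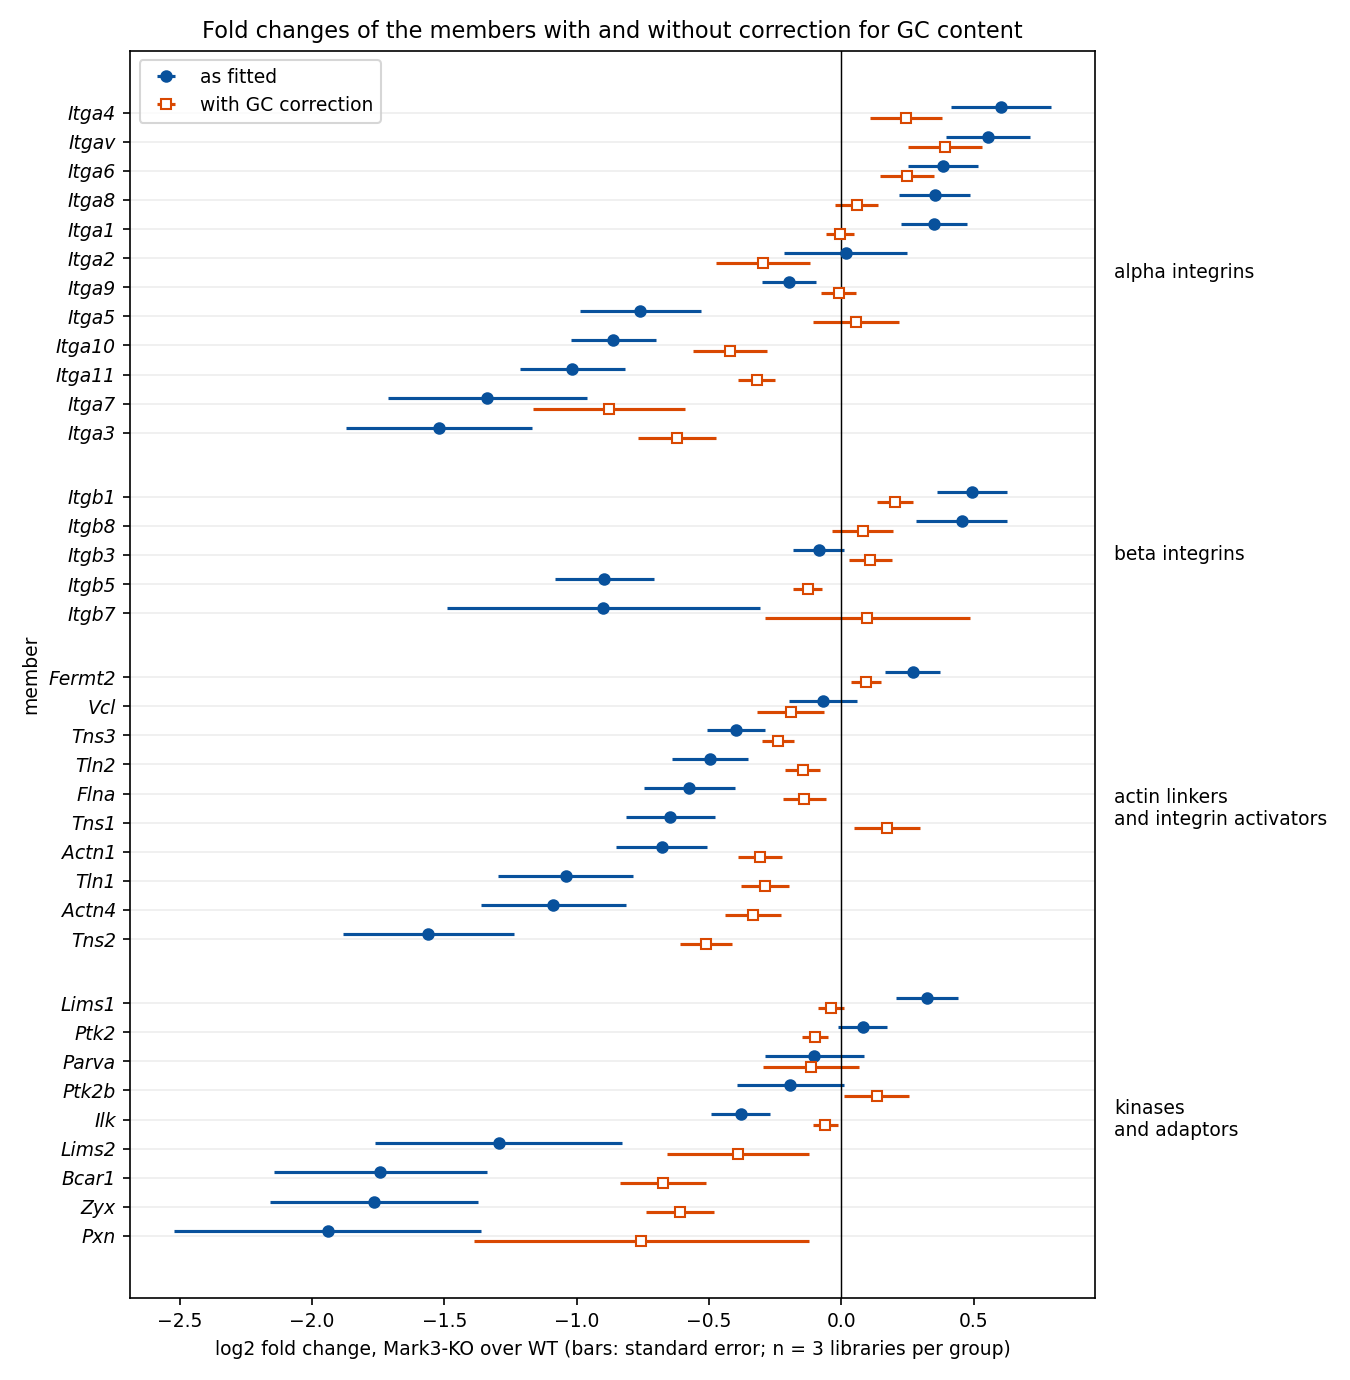
Log2 fold change of each member, Mark3-KO over WT, with its standard error, as fitted (filled circles) and with the correction for GC content (open squares). The median of the 36 members was -0.45 as fitted and -0.12 corrected, and Itga7, Pxn and Bcar1 had the most negative corrected values. In Itga7 and Pxn the corrected levels of the groups overlapped.

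The adaptors Pxn, Zyx and Bcar1 held the most negative fold changes without GC correction, and the focal adhesion kinases some of the smallest in size. Zyx, zyxin, a LIM protein that gathers at adhesions under tension (chromosome 6, 42349630 to 42360213), measured 576, 382 and 243 CPM (WT) and 170.2, 104 and 79.1 CPM (Mark3-KO). The WT libraries alone differed 2.37-fold, and Mark3-KO stood at 29.4% of WT in the mean, with a log2 fold change of -1.76 ± 0.39 (SE, at an edgeR adjusted p of 0.0506) and -0.61 corrected. Bcar1, the scaffold p130Cas that is phosphorylated when stretched (chromosome 8, 111710474 to 111743809), measured 79.1, 48.7 and 29.6 CPM (WT) and 21.6, 14.1 and 11.4 CPM (Mark3-KO), with a log2 fold change of -1.74 ± 0.40 (SE, at an edgeR adjusted p of 0.0506) and -0.67 corrected. Zyx and Bcar1 thus shared an order of libraries, highest in WT replicate 1 and lowest in Mark3-KO replicate 3. Pxn, paxillin, the scaffold that docks focal adhesion kinase (chromosome 5, 115506676 to 115555987), did not: it measured 47.3, 37.1 and 28.5 CPM (WT) and 6.24, 4.01 and 19.1 CPM (Mark3-KO). Its Mark3-KO libraries spread 4.77-fold, with replicate 3 high, and its log2 fold change of -1.94 ± 0.58 (SE, at an edgeR adjusted p of 0.0547) carried the second largest SE of the members. With the correction Pxn was at -0.76 (SE 0.63), and without Mark3-KO replicate 3 its uncorrected log2 fold change was -2.88. Corrected levels of Pxn were 24.8, 25.2 and 27.3 CPM (WT) and 7.07, 6.02 and 32.9 CPM (Mark3-KO). The groups then overlapped, with Mark3-KO replicate 3 above every WT library.

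In both focal adhesion kinases the groups overlapped without GC correction. Ptk2, focal adhesion kinase itself, measured 128 ± 7.74 CPM (WT) and 135 ± 7.32 CPM (Mark3-KO) (log2 fold change 0.08, edgeR adjusted p 0.523). With the correction its sign turned, to -0.10, and its groups separated, at 134, 136 and 137 CPM (WT) and 125, 125 and 131 CPM (Mark3-KO). Its paralog Ptk2b, PYK2, measured 8.33 ± 1.22 CPM (WT) and 7.28 ± 1.48 CPM (Mark3-KO) (-0.19, edgeR adjusted p 0.477, and 0.13 corrected). Ptk2 held 88.6, 91.1 and 91.9% (WT) and 90.2, 92.0 and 93.9% (Mark3-KO) of their summed RPKM, and the groups overlapped, also with the correction. Of the complex of ILK, PINCH and parvin, Ilk, the pseudokinase that links beta tails to parvin (chromosome 7, 105736592 to 105742925), measured 216, 205 and 182 CPM (WT) and 169, 152 and 142 CPM (Mark3-KO), for a log2 fold change of -0.38 ± 0.11 (SE, at an edgeR adjusted p of 0.0527) and -0.06 corrected. Of the exon bases of Ilk, 76.7% are shared with Taf10 on the opposite strand, which measured 75.2 CPM (WT) and 44.4 CPM (Mark3-KO), so the Ilk counts are uncertain. Lims1, PINCH1, measured 278 ± 28.6 CPM (WT) and 348 ± 33.1 CPM (Mark3-KO) (0.32, edgeR adjusted p 0.0795), with its groups apart on the higher side, but -0.04 corrected. Lims2, PINCH2, measured 4.53 ± 2.28 CPM (WT) and 1.84 ± 0.872 CPM (Mark3-KO) (-1.29, edgeR adjusted p 0.0780), and its groups overlapped. For Lims2 this log2 fold change was -0.39 corrected and -0.83 without WT replicate 1. Lims1 held 95.8, 97.7 and 98.7% (WT) and 98.6, 99.3 and 99.5% (Mark3-KO) of the summed RPKM of both genes, with overlap. Parva, alpha-parvin, whose values by library were chosen after they were seen, measured 495, 503 and 546 CPM (WT) and 345, 559 and 533 CPM (Mark3-KO). Mark3-KO replicate 1 alone was low, and without it the log2 fold change turned from -0.10 to 0.08. With the correction it was -0.11.

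The direction of a member followed the GC content of its transcripts. Of the 23 members above the median GC content of the genes tested (49.3%), which hold 51.2 to 60.2% GC, 23 had a negative log2 fold change, beside 83.2% of all genes above that median. Their median was -0.90, beside -0.51 for all genes above it. Of the 13 members at or below it, with 43.1 to 48.9% GC, 11 had a positive one, beside 85.4% of all genes there, and Vcl and Parva were the exceptions. Their median was 0.35, beside 0.37. Across the 36 members Pearson's r between GC content and log2 fold change was -0.92 (Spearman's rho -0.93), beside -0.74 (-0.81) across 18965 genes. Genes share their libraries and are not independent replicates, so these are descriptions. With the correction r was -0.58 across the members and -0.23 across all genes, so the correction left part of the relation in place.

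Within the transcript, the correlation across the members was strongest for the coding sequence and weakest for the 5′ UTR. In the principal transcript of each of the 36 members, r between log2 fold change and GC content was -0.90 for the coding sequence, -0.78 for the 3′ UTR and -0.14 for the 5′ UTR. For the 27 members with a promoter entry it was 0.02 for the GC content of the 250 bases before the start, taking the window of highest GC content where a gene had several. Some 5′ UTRs are very short, with 2 bases in Tns1, 46 in Lims1 and 51 in Itga10. The low values for the 5′ UTR and promoter therefore do not show that a relation is absent there. The parts were not compared over all genes. Itgb1 and Zyx serve as examples: their coding sequences held 42.6 and 59.9% GC, their 5′ UTRs 75.5 and 78.5%, and their promoters 68.0 and 67.6%. Among the paralogs, Lims1 and Lims2 held 49.2 and 56.1% GC in their coding sequences and had log2 fold changes of 0.32 and -1.29, or -0.04 and -0.39 corrected. In the talins, alpha-actinins and focal adhesion kinases, too, the paralog richer in coding GC had the lower log2 fold change without the correction. With it the order held in the talins (-0.29 for Tln1 and -0.15 for Tln2). The alpha-actinins were then nearly level (-0.31 for Actn1 and -0.34 for Actn4), and the kinases turned (-0.10 for Ptk2 and 0.13 for Ptk2b). Tns1 and Tns2 were nearly level in coding GC, at 59.0 and 58.9%, but had log2 fold changes of -0.65 and -1.56, or 0.17 and -0.51 corrected. Over all annotated transcripts they held 56.8 and 58.7% GC, and by that measure the richer Tns2 had the lower log2 fold change.

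**Figure D4:**
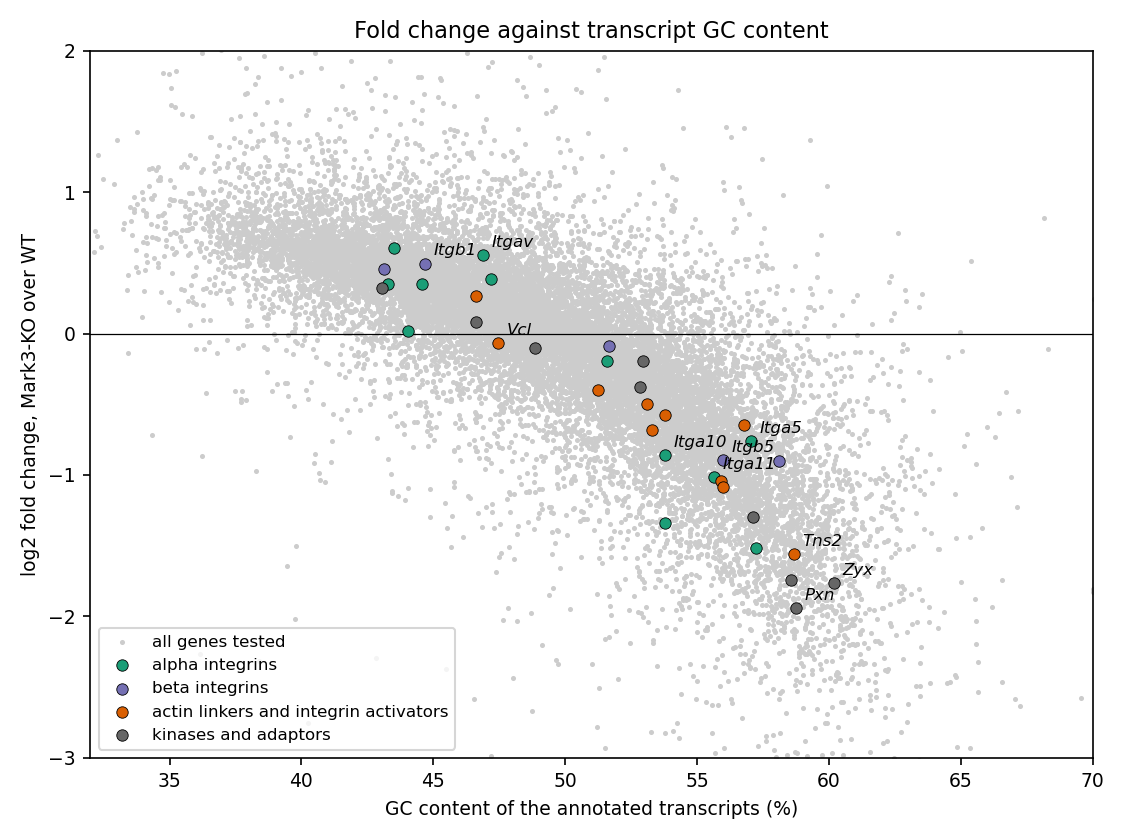
Log2 fold change (Mark3-KO over WT) against the GC content of annotated transcripts in %, for all genes tested (grey) and for the members by role (coloured). Members at 51.2% GC or more all lie below 0 and most of those under 48.9% lie above it, along the band of all genes; 142 of 18965 genes fall outside the axes.

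The spread within groups followed the same axis. In 19 of 36 members (52.8%, beside 27.8% of all genes tested) the 6 libraries stood in the exact order of their high-GC ratio, 14 with values in descending order from WT replicate 1 to Mark3-KO replicate 3 and 5 in reverse. Of the 29 members whose groups did not overlap, 1, Itga10, had a gap between the groups wider than the range within each group (2.78% of members, beside 3.67% of all genes). This holds without the GC correction, and with it the gap of Itga10 was narrower than either range. Relative to the average over the 6 libraries, in log2, the median of the members came to 0.34, 0.21 and 0.05 (WT) and -0.04, -0.22 and -0.35 (Mark3-KO). WT replicate 3 and Mark3-KO replicate 1 thus lay next to each other. Over all genes but those with very few counts, they were also the most alike of any pair of libraries, at a chi-square of 58.7 per degree of freedom. Pairs within a group ran from 67.6 (Mark3-KO replicates 2 and 3) to 207.1 (WT replicates 1 and 3).

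The other genes of the pathway were taken from lists of 9 further integrin subunits, 61 further focal adhesion genes and 27 integrin ligands, of which 7, 59 and 26 were tested. In edgeR's test at an adjusted p below 0.05, 1 of these 92 genes passed, Pip5k1c, and it fell. Pip5k1c encodes the lipid kinase that binds talin and makes phosphatidylinositol bisphosphate at adhesions, and it measured 88.1, 66.3 and 43.5 CPM (WT) and 9.40, 6.23 and 3.97 CPM (Mark3-KO). The lowest WT value was above the highest Mark3-KO value, with a log2 fold change of -3.33 ± 0.40 (SE, at an edgeR adjusted p of 0.0459), and -2.22 (adjusted p 0.00472) with the GC correction. With WT replicate 1, WT replicate 2, Mark3-KO replicate 2 or Mark3-KO replicate 3 left out, its adjusted p ran from 0.118 to 0.154, and with limma-voom it was 0.0528. At an unadjusted p below 0.05, 9 further focal adhesion genes were higher and 28 lower, 3 ligands were higher and 14 lower, and 0 further integrin subunits were higher and 3 lower, where 20.8% of all genes were higher and 24.8% lower. With the GC correction these counts were 8 and 15 for focal adhesion genes, 2 and 11 for ligands and 0 and 0 for subunits, beside 12.6% and 13.9% of all genes. The list medians were -0.39, -0.34 and -0.26 in that order, and -0.08, -0.21 and -0.08 with the correction.

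After Pip5k1c, the further focal adhesion genes with the smallest p were Rapgef1, an exchange factor that acts on Rap1, at 148 ± 27.9 CPM (WT) and 68.6 ± 7.88 CPM (Mark3-KO), and Src, the kinase that works with focal adhesion kinase, at 49.0 ± 14.8 CPM (WT) and 14.3 ± 4.01 CPM (Mark3-KO). Their log2 fold changes were -1.11 and -1.78 (edgeR adjusted p 0.0506 and 0.0506), and -0.26 and -0.66 with the correction. The ligand with the smallest p was Fn1, fibronectin, at 22009 ± 1517 CPM (WT) and 14575 ± 1067 CPM (Mark3-KO). Next came Col6a1, a collagen VI chain, at 1838 ± 407 CPM (WT) and 949.6 ± 166 CPM (Mark3-KO), and Col1a1, the main collagen chain of bone, at 13907 ± 7188 CPM (WT) and 4167 ± 889 CPM (Mark3-KO). Fn1, Col6a1 and Col1a1 had log2 fold changes of -0.59, -0.95 and -1.74, and -0.24, -0.07 and -0.71 with the correction. Among the further subunits, all at low levels, they were Itgb4, which pairs with alpha6 in epithelia, Itga2b, the platelet alpha chain, and Itgb2, the leukocyte beta chain. Their levels were 1.38, 3.64 and 3.81 CPM (WT) and 0.507, 1.73 and 2.60 CPM (Mark3-KO), with log2 fold changes of -1.43, -1.07 and -0.55, or -0.35, -0.08 and -0.14 corrected, and Itgb4 also stands among the epithelial markers below.

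The libraries carried several osteoblast genes: over the 6 libraries Col1a1 ran from 3408 to 21342 CPM, Spp1 (osteopontin) from 1091 to 1526 CPM, Runx2 from 52.2 to 82.5 CPM, Sp7 (osterix) from 40.2 to 56.3 CPM and Alpl (alkaline phosphatase) from 17.4 to 36 CPM. Bglap (osteocalcin), a late marker, stayed at 0.146 to 0.962 CPM. Levels of Ibsp and Dmp1, also on the marker list, are not given by gene and enter only the sum. The 8 osteoblast markers together held 22593, 14734 and 8401 CPM (WT) and 6792, 5500 and 5053 CPM (Mark3-KO), most of it Col1a1, and 7 of 8 had a negative log2 fold change (median -0.46, and -0.22 corrected). This sum thus ran in the same direction as the median of the members. The 8 macrophage and blood cell markers summed to 41.3 to 48.0 CPM (WT) and 38.8 to 42.8 CPM (Mark3-KO), with 3 of 8 tested higher and 5 lower. Ptprc, the pan-leukocyte marker CD45, ran from 1.99 to 4.29 CPM. The 6 endothelial markers summed to 9.14 to 10.8 CPM (WT) and 8.49 to 9.52 CPM (Mark3-KO), and the 6 epithelial markers to 1.36 to 2.09 CPM (WT) and 0.688 to 0.923 CPM (Mark3-KO), with Krt14 at 0 counts in all libraries. The 7 pericyte and smooth muscle markers, most of whose sum is Acta2 and which osteoblast cultures also express, summed to 2954 to 3734 CPM (WT) and 1670 to 2702 CPM (Mark3-KO), with 6 of 7 lower. The part of these cells and of osteoblast content in the member results was not tested.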

How the data were processed

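RNA of 6 libraries was sequenced after preparation with the TruSeq RNA kit v2, which does not mark strand. The authors deposited a table of raw read counts per Ensembl gene. HISAT2 2.0.5, StringTie, FastQC, DESeq2 and the build GRCm38 are named, with no roles, per the submitters' processing notes. The counting tool, annotation release and treatment of reads shared by overlapping genes are not given in the sources used here. Groups came from the labels.

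Counts were tested in R 4.3.3 with edgeR 4.0.16 (filterByExpr, TMM, quasi-likelihood F test, group as the only term, Benjamini-Hochberg adjustment over 19017 genes, threshold 0.05), after a check on simulated data with 200 changed genes. Gene models came from GENCODE M21 (51719 of 51912 IDs matched, 193 not). Transcript GC content, available for 18965 tested genes, entered the GC correction as an offset per gene and library from a natural spline (6 df) of the log2 ratio to the mean of the gene. The SE of a log2 fold change was derived as its absolute value divided by the square root of its quasi-likelihood F statistic. RPKM is CPM per kilobase of merged exons. Promoter sequences are RefSeq's. DESeq2 1.42.0 and limma 3.58.1 served as alternatives, beside other scalings and filters, a replicate block and leaving out each library. Members and lists were chosen with earlier results of these data known. Values by library are given for the 4 members of each role with the smallest p and the 2 highest per length, and 3 genes are named from each other list by p.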

Additional observations from a re-analysis of the deposited data

How the results depend on the processing

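The counts of members passing at an adjusted p below 0.05 (0 higher, 0 lower) stayed at 0 with DESeq2 size factors, no filter, limma-voom and the GC correction. They were 3 and 11 with library size alone (background 11.5% and 12.2% of genes), 4 and 19 with the DESeq2 Wald test, 4 and 18 with a filter of 1 CPM in 3 libraries (16.1% and 21.3%), and 9 and 19 at a threshold of 0.1. With 1 library left out they ran from 0 to 4 higher and from 0 to 18 lower, and they were above 0 without WT replicate 3 and without Mark3-KO replicate 1. The other pathway genes (0 higher, 1 lower) came to 7 and 24 with library size alone, 7 and 44 with DESeq2, 0 and 0 with limma-voom, 7 and 36 with the stricter filter, 12 and 45 at a threshold of 0.1, and from 0 to 9 and from 0 to 42 with 1 library left out. Mark3 ran from -1.35 to -1.22 with 1 library left out. Library size alone moved the median of all genes from 0.02 to 0.13. The causes were not tested, apart from the threshold of 0.1, which admits more genes by construction.

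Fits with the replicate number as a block passed 8 members higher and 20 lower (19.9% and 24.7% of all genes) and 12 and 46 other pathway genes. With block and GC correction together, members came to 0 and 6 (1.88% and 5.13%) and other pathway genes to 2 and 12. Deviations of same-numbered libraries correlated at 0.462, -0.042 and 0.391. In both groups the replicate numbers also follow the order of the high-GC ratio, so these correlations cannot decide whether the numbers pair the libraries. The labels give no shared litter or day, so the block was kept as an alternative.

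The median of the members was -0.12 with the GC correction and -0.14 with block and correction. The correction also took members wholly higher in Mark3-KO from 9 to 2, an alternative chosen after seeing the data, as were the corrected shares of subunits and paralogs. Of 36 members, 25 kept their sign under the 15 alternatives with a fit of their own and 11 turned in at least 1. The correction turned Itga1 (-0.0062), Itga2 (-0.30), Itga5 (0.055), Itgb3 (0.11), Itgb7 (0.10), Ptk2 (-0.10), Ptk2b (0.13), Lims1 (-0.039) and Tns1 (0.17). With the block these were -0.006 (Itga1), -0.28 (Itga2), 0.065 (Itga5), 0.11 (Itgb3), 0.067 (Itgb7), -0.10 (Ptk2), 0.13 (Ptk2b), -0.039 (Lims1) and 0.19 (Tns1). Library size alone turned Itgb3 (0.026), Vcl (0.045) and Parva (0.0093). With 1 library left out, Itga2 ran from -0.16 (without WT replicate 1) to 0.14, Vcl from -0.18 to 0.029 (without Mark3-KO replicate 3) and Parva from -0.23 to 0.083 (without Mark3-KO replicate 1), and Itga2 was also negative, at -0.071, without Mark3-KO replicate 3. Counts below about 1 CPM, as for Itgb7, limit the precision of the lowest members.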
